A study of Mus musculus with 6 samples.

Results

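The paraoxonase family consists of *Pon1*, *Pon2* and *Pon3*, which lie side by side on mouse chromosome 6. The 3 genes were taken by symbol from the 55401 genes counted in subcutaneous white adipose tissue (scWAT). *Pon1* was chosen by its strong rise in the contrast described here, so its difference between the groups is given as a description with no test, whereas *Pon2* and *Pon3* entered as its paralogues. Total RNA was sequenced from 3 YT-FF mice, which are homozygous for floxed *Yap* and floxed *Taz* but lack Cre (the sample labels call them wild type), and from 3 YT-AKO mice, which have the same floxed genes together with Cre driven by the *Adipoq* promoter. The floxed lines were of C57BL/6-129 background and the Cre line of C57BL/6. All 6 mice were males aged 8 weeks and kept at 22 °C. The *Adipoq* promoter is active in mature adipocytes, so the other cells of the tissue keep both genes, and the libraries hold RNA of the whole depot. The comparison asks how the transcripts of scWAT differ when both cofactors are deleted in adipocytes.

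Paraoxonases are calcium-dependent hydrolases that open lactone rings and, to different degrees, split aryl esters and organophosphates. PON1 and PON3 are known mainly as liver-made serum enzymes carried on high-density lipoprotein (HDL), where PON1 limits the oxidation of lipids. PON2 is not secreted. It is found in most tissues, on the membranes of the endoplasmic reticulum and mitochondria, where it is linked to coenzyme Q, superoxide and the ER stress response.

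The genes lie on the minus strand of mm10 in the order *Pon1*, *Pon3*, *Pon2*. *Pon1* (ENSMUSG00000002588) spans chr6:5168090-5193946, *Pon3* (ENSMUSG00000029759) chr6:5220852-5256286 and *Pon2* (ENSMUSG00000032667) chr6:5264147-5298455, a cluster of 130.4 kb in all. Between *Pon1* and *Pon3* lie 26905 bases, and between *Pon3* and *Pon2* 7860 bases. Each principal transcript has 9 exons, and the coding sequences hold 355, 354 and 354 codons for *Pon1*, *Pon2* and *Pon3*. In pairwise alignment, the coding bases of *Pon1* and *Pon2* were 66.3% identical, those of *Pon2* and *Pon3* 65.8%, and those of *Pon1* and *Pon3* 62.5%. None of the 50-base words of their transcripts was shared between members, so a fragment of this length could be assigned to a single member.

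The sequences just upstream of the members are shown because these paralogues, although adjacent, start from unlike sequences. They come from RefSeq (GRCm38.p6, minus strand, written 5′ to 3′), end before the first annotated start of each gene, and have CpG dinucleotides in capitals. They cover chr6:5193988-5194196 for *Pon1*, chr6:5256287-5256483 for *Pon3* and chr6:5298456-5298590 for *Pon2*.
Pon1: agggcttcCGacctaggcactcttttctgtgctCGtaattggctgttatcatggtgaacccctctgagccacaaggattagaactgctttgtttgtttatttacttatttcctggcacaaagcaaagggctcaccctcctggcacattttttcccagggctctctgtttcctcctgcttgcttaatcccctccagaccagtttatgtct
Pon3: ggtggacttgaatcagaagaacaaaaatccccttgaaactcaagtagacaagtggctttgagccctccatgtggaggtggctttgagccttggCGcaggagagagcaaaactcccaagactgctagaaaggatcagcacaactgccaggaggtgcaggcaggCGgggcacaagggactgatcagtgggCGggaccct
Pon2: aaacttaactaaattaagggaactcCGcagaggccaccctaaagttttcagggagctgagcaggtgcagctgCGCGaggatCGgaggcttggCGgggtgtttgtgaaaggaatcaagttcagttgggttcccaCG

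Over the full 250 bases before the RefSeq start, *Pon1* had 3 CpG and 47.6% G+C, *Pon3* 6 CpG and 56.8%, and *Pon2* 24 CpG and 65.6%. The median over 32851 promoters of this length was 6 CpG and 52.4%. Fewer CpG than in *Pon1* were found in 29.0% of these promoters, fewer than in *Pon3* in 49.6% and fewer than in *Pon2* in 88.0%. Motifs were searched on both strands, with positions counted back from the RefSeq start. The Sp1 motif GGGCGG, held by 32.7% of all promoters, occurred 3 times in *Pon2* and once in *Pon3*, where it can be read near the end of the sequence above, and did not occur in *Pon1*. The C/EBP motif TTNNGCAA, held by 9.56% of promoters, occurred once in *Pon1*, its first base at -73 (ttgcttaa in the sequence above), and once in *Pon3* at -15, but not in *Pon2*. GGAATG, the motif of the TEAD factors that YAP and TAZ bind (12.6% of promoters), and the nuclear receptor motif AGGTCA (14.0%) were in none of the windows. These matches describe letters in a window and say nothing about binding.

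The libraries held 17740987 to 21838493 counted fragments. Their TMM factors were 1.07 to 1.16 in YT-FF and 0.777 to 0.955 in YT-AKO, with the lowest in YT-AKO 2, and levels given as CPM, counts scaled to library size, use these factors. Of the deleted genes, *Yap1* was lower in YT-AKO (492 to 649 counts, against 1295 to 1622 in YT-FF), but *Wwtr1*, which encodes TAZ, went against the label (2253 to 3015 counts in the libraries labelled YT-AKO, against 1729 to 1918). Counts are summed over whole genes, so a deleted exon cannot be seen in them. By immunoblot, the study reports clearly less YAP and TAZ protein in scWAT of YT-AKO mice, which RNA counts do not measure. By edgeR (quasi-likelihood, Benjamini-Hochberg adjusted p under 0.05), 12.6% of the 16807 tested genes were called higher in YT-AKO (as labelled) and 9.01% lower. These calls depended on single YT-FF libraries. Without YT-FF 1, edgeR called 0 genes (4665 at an unadjusted p under 0.05) and without YT-FF 2 it called 2 (4507 at an unadjusted p under 0.05), *Rpl29* and *Npr3*. Every edgeR call below made with these settings was thus lost without either of these libraries. Calls by DESeq2 or with another scale, filter or correction were not refitted with a library left out. Without YT-FF 3 edgeR called 1232, and without YT-AKO 2 5349, against 3636 with all libraries. All 3 paraoxonases passed the filter on low counts.

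*Pon1* was the member with the largest difference between the groups. YT-FF 1, 2 and 3 gave 182, 266 and 189 counts of *Pon1*, and YT-AKO 1, 2 and 3 gave 1293, 2251 and 1331, in this order throughout. After normalization its level was 7.76, 11.7 and 9.73 CPM in YT-FF and 75.2, 133 and 78.7 CPM in YT-AKO. The groups were far apart, and YT-AKO 2 was the highest library. The mean level went from 9.73 ± 1.97 to 95.5 ± 32.3 CPM (SD, n = 3), and the fitted log2 fold change was 3.30 with a standard error of 0.288. In rank of log2 fold change *Pon1* stood at 37 of 16807 genes. As the gene was chosen by this difference, the values carry no test. Per length, in TPM, where counts are divided by the summed exon length (2898 bases for *Pon1*) before scaling, *Pon1* had 10.3, 15.9 and 12.1 TPM in YT-FF and 72.3, 80.3 and 73.8 TPM in YT-AKO. On that scale the YT-AKO libraries lay close together, at 75.5 ± 4.23 TPM against 12.8 ± 2.88 TPM (SD, n = 3), a ratio of 5.91 where the ratio of mean CPM was 9.82. The length of *Pon1* cancels in these ratios, which differ by the scaling alone. TPM are scaled to each library's sum of counts per base and do not use the TMM factors.

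*Pon3*, whose product is also an HDL lactonase, was higher by a smaller margin. Its counts were 1478, 1770 and 1450 in YT-FF and 2002, 2412 and 2286 in YT-AKO. This corresponded to 63.0, 77.8 and 74.7 CPM in YT-FF and 116, 142 and 135 CPM in YT-AKO. Every YT-AKO library lay above every YT-FF library, as it did for 25.7% of the tested genes. *Pon3* rose from 71.8 ± 7.79 to 131 ± 13.3 CPM (SD, n = 3), a log2 fold change of 0.87 with a standard error of 0.161 (95% interval 0.50 to 1.24, edgeR adjusted p = 0.0194). The call was lost without YT-FF 1 (edgeR adjusted p = 0.113) or YT-FF 2 (edgeR adjusted p = 0.112), while the log2 fold change stayed between 0.78 and 0.96 with any library left out. With library totals alone as the scale the log2 fold change was 0.54 (edgeR adjusted p = 0.0546). That scale moved the median of all genes from -0.02 to -0.34 and the share of higher genes among the calls from 58.3% to 28.7%, so relative to the median of all genes *Pon3* stood about as high on either scale. In TPM the groups overlapped, with 71.5, 90.7 and 79.6 TPM in YT-FF and 95.9, 73.6 and 109 TPM in YT-AKO. As for *Pon1*, the step from CPM to TPM is a scaling shared by all genes of a library.

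*Pon2*, the intracellular member, gave no call. Its counts were 1363, 1437 and 1565 in YT-FF and 1519, 1912 and 1615 in YT-AKO, or 58.1, 63.1 and 80.6 CPM against 88.3, 113 and 95.4 CPM. The groups did not overlap in CPM, as for 25.7% of tested genes in this direction, but YT-FF 3 and YT-AKO 1 were close. Mean levels were 67.3 ± 11.8 and 98.8 ± 12.6 CPM (SD, n = 3), and the log2 fold change of 0.56 had a standard error of 0.183 and a 95% interval of 0.13 to 0.98 (edgeR adjusted p = 0.0629). The interval is that of this gene alone, before adjustment over all genes. DESeq2, the tool of the study, gave 0.56 with an adjusted p of 0.0392 after Benjamini-Hochberg adjustment, and a correction for gene length in edgeR gave 0.88 with an adjusted p of 0.0422, so the call of *Pon2* turned on the method. In TPM the sign of its difference was the opposite, since the mean went from 34.7 ± 4.63 in YT-FF to 31.9 ± 4.44 TPM in YT-AKO (SD, n = 3). Its YT-FF libraries stood at 30.4, 34.0 and 39.6 TPM and its YT-AKO libraries at 33.5, 26.9 and 35.4 TPM, and these ranges overlapped. The ratio of its means, YT-AKO over YT-FF, was 0.922 in TPM and 1.47 in CPM. For *Pon3* that ratio was 1.15 and 1.83, and for *Pon1* 5.91 and 9.82. Between libraries, TPM and CPM differ by a scaling that all genes share, so this shift is not particular to *Pon2*. *Pon2* has the longest exons of the family, 7339 bases in all, of which 680 (9.27%) overlap Gm44424 on the opposite strand. Fragments in this overlap were left out of the counts, as could be those in the 11.2% of its 50-base words that occur in transcripts of 522 other genes, so its level is less certain than those of *Pon1* and *Pon3*.

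**Figure D1:**
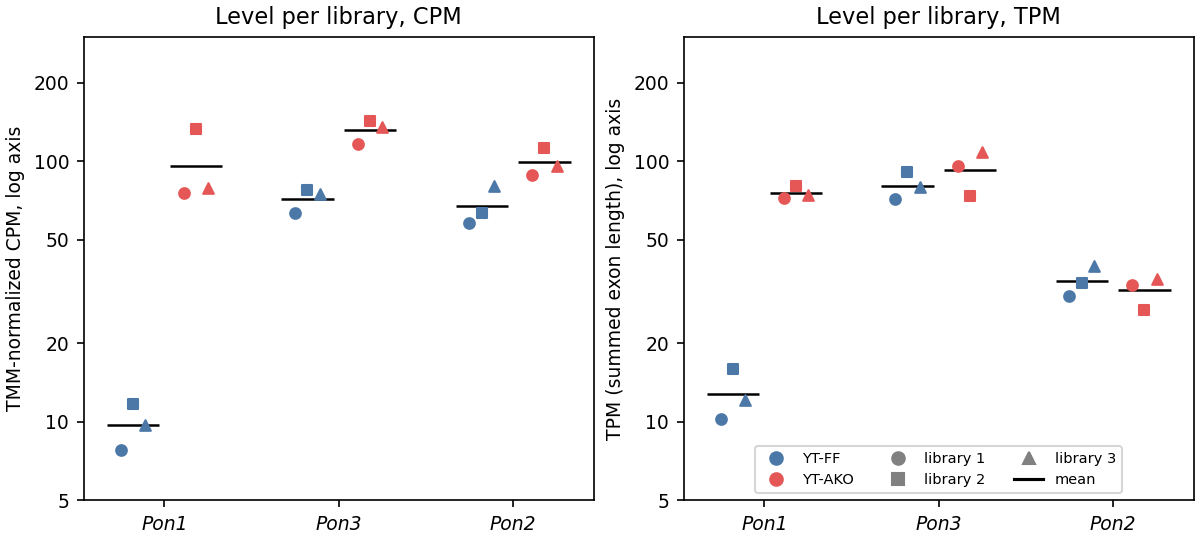
Level of each paraoxonase in each library, in TMM-normalized CPM (left) and in TPM from summed exon lengths (right), both on log axes. Points are libraries (blue YT-FF, red YT-AKO, shapes the replicate numbers) and black lines are group means. *Pon1* separates the groups on both scales, at 7.76 to 11.7 against 75.2 to 133 CPM, whereas *Pon3* and *Pon2* separate in CPM and overlap in TPM. Between libraries, these scales differ by a factor that all genes share.

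Within a library, ratios between counts of members do not depend on a scale shared by all its genes. The correction for gene length is not such a scale. With it *Pon3* (log2 fold change 0.83) no longer rose more than *Pon2* (0.88). For each *Pon2* count there were 1.08, 1.23 and 0.927 *Pon3* counts in YT-FF and 1.32, 1.26 and 1.42 in YT-AKO. Each YT-AKO library lay above each YT-FF library in this ratio, by a small margin. The means were 1.08 ± 0.153 and 1.33 ± 0.0779 (SD, n = 3), and the two-sided exact permutation test gave p = 0.1, the smallest that 3 libraries against 3 allow, and so could not reach 0.05. For each *Pon3* count there were 0.123, 0.150 and 0.130 *Pon1* counts in YT-FF and 0.646, 0.933 and 0.582 in YT-AKO.

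The order of the members by level per length was *Pon3*, *Pon2*, *Pon1* in each YT-FF library. In YT-AKO the mean order was *Pon3*, *Pon1*, *Pon2*, at 92.7 ± 17.7, 75.5 ± 4.23 and 31.9 ± 4.44 TPM (SD, n = 3). *Pon3* and *Pon1* did not differ beyond their spread there, and in YT-AKO 2 *Pon1* (80.3 TPM) was above *Pon3* (73.6 TPM). The share of *Pon1* in the family's summed TPM was 9.17%, 11.3% and 9.23% in YT-FF and 35.8%, 44.4% and 33.9% in YT-AKO, or 9.91 ± 1.23% and 38.0 ± 5.58% (SD, n = 3). *Pon2* made up 27.1 ± 3.01% and 15.9 ± 0.915%, and *Pon3* 62.9 ± 2.07% and 46.0 ± 4.74% (SD, n = 3). These shares add up to the whole, so the larger share of *Pon1*, the gene chosen by its rise, goes with smaller shares of the others. The summed level of the family was 128 ± 14.5 TPM in YT-FF and 200 ± 18.5 TPM in YT-AKO (SD, n = 3). With the length of the principal transcript alone, the share of *Pon1* was 8.73% in YT-FF and 35.4% in YT-AKO. The other shares moved more, to 38.0% and 23.5% for *Pon2* and 53.3% and 41.1% for *Pon3*. The summed level was then 279 ± 30.3 TPM in YT-FF and 413 ± 39.0 TPM in YT-AKO (SD, n = 3), with only the members' lengths changed.

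**Figure D2:**
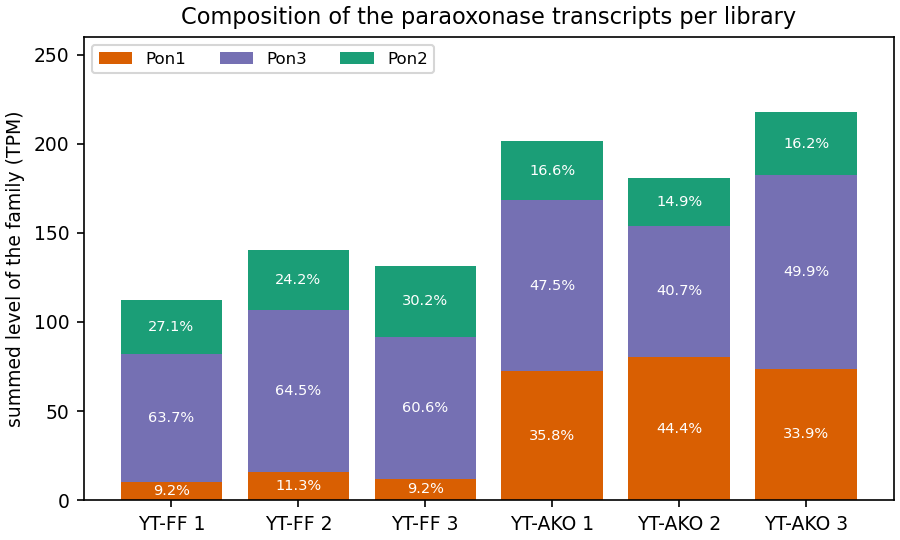
Summed level of the 3 paraoxonases in each library in TPM (bar height), divided by member, with each member's share printed in its segment. The total runs from 112 to 141 TPM in YT-FF and from 181 to 218 TPM in YT-AKO, and *Pon1* goes from 9.17 to 11.3% of it to 33.9 to 44.4%.

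The neighbourhood was examined to see whether the difference extended along the chromosome. Within 1 Mb of the cluster, 10 other genes passed the filter on low counts, of which 1 rose and 1 fell, near the 12.6% and 9.01% of all tested genes. There were 0 calls without YT-FF 1 or YT-FF 2, 1 without YT-FF 3 or YT-AKO 3, and 4 without YT-AKO 2. The balance turned with the scale, with 0 higher and 2 lower by library totals alone and 2 higher and 0 lower with a correction for gene length. Their median log2 fold change was 0.40, beside -0.02 for all tested genes. The gene that rose was Gm44250, a transcript of 4229 bases that GENCODE lists as still to be checked by experiment (chr6:5216258-5220486) between *Pon1* and *Pon3*. Its counts were 1628, 1577 and 1552 in YT-FF and 2063, 1857 and 2198 in YT-AKO, with a log2 fold change of 0.72 (standard error 0.151, edgeR adjusted p = 0.0232), and by library totals alone it lost its call, at 0.40 (edgeR adjusted p = 0.142). Gm44250, also on the minus strand, lies downstream of *Pon3*, with 365 bases between it and the GENCODE 3′ end of *Pon3*. It lies wholly within *Pon3* as RefSeq annotates it, so it cannot be told apart from a longer 3′ end of *Pon3*. Its ratio to *Pon3* counts was 1.10, 0.891 and 1.07 in YT-FF and 1.03, 0.770 and 0.961 in YT-AKO, and these ranges overlapped (two-sided exact permutation test, p = 0.4). With its counts added to *Pon3*, a setting added after the data were seen, the log2 fold change of *Pon3* was 0.80 (edgeR adjusted p = 0.0203).

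The gene called lower was *Ppp1r9a*, which encodes the actin-binding protein neurabin-1. It ends 2.43 kb from *Pon1* (chr6:4902917-5165661) and is thus the nearest neighbour on that side. Its counts were 701, 810 and 639 in YT-FF and 393, 377 and 397 in YT-AKO, with a log2 fold change of -0.52 (standard error 0.148, edgeR adjusted p = 0.0438). With the correction for gene length its difference was on the other side of 0, at 0.05 (edgeR adjusted p = 0.845), and with no filter it lost its call at -0.52 (edgeR adjusted p = 0.0943). It also lost its call without any one library other than YT-AKO 2 (edgeR adjusted p = 0.0822 to 0.188). The groups did not overlap in CPM, as for 25.8% of tested genes in this direction. The 8 other neighbours did not pass the test. Their log2 fold changes ran from -0.60 for *Slc25a13*, a mitochondrial aspartate-glutamate carrier, and -0.53 for *Casd1*, a sialic acid acetyltransferase, to 1.59 for Gm26736, which had at most 58 counts in a library. The imprinted genes *Sgce* (0.41), *Peg10* (0.40) and *Asb4* (0.70) and the collagen gene *Col1a2* (0.47) lay between. So did *Pdk4*, the kinase that restrains pyruvate oxidation, at 0.30.

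**Figure D3:**
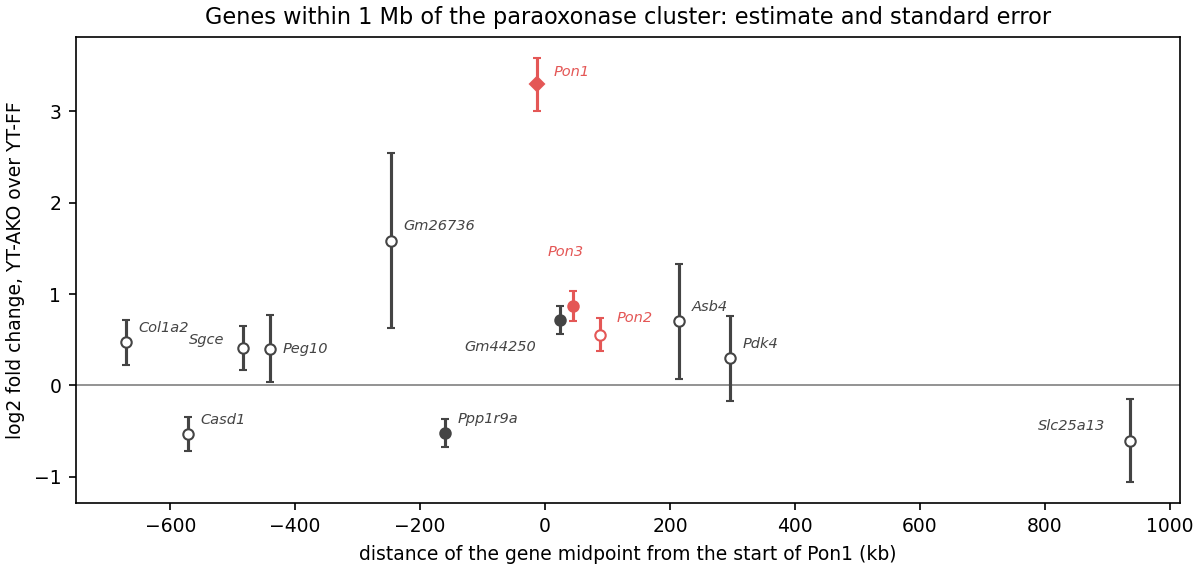
Log2 fold change (YT-AKO over YT-FF) of the tested genes within 1 Mb of the paraoxonases, against the distance of the gene's midpoint from the start of *Pon1* in kb. Bars are standard errors, red marks the members, filled circles an edgeR adjusted p under 0.05, and the diamond *Pon1*, which was not tested. *Pon1* stands at 3.30, and the next lower called genes, *Pon3* and Gm44250, at 0.87 and 0.72.

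Other genes of the pathways in which paraoxonases act were taken from 6 lists. HDL partners, with which PON1 and PON3 travel in serum, were mixed. Of 14 tested genes of 17 listed, 5 rose and 0 fell (2 were lower at an unadjusted p under 0.05 and by DESeq2), beside 12.6% and 9.01% of all tested genes, and the median log2 fold change was 0.40 (0.04 with library totals alone, when 4 rose and 2 fell). Without YT-FF 1 or YT-FF 2 there were 0 calls, without YT-FF 3 3, and without YT-AKO 2 8. The largest change was that of *Saa3*, an acute-phase apolipoprotein, with counts of 7, 11 and 12 in YT-FF and 215, 57 and 28 in YT-AKO (log2 fold change 3.64, standard error 0.796, edgeR adjusted p = 0.0248). *Apoc3*, an inhibitor of lipoprotein lipase, had 21, 24 and 19 counts against 208, 285 and 83 (log2 fold change 3.52, standard error 0.473, edgeR adjusted p = 0.0166). *Apoc1* had 747, 657 and 995 counts against 2685, 6773 and 1934 (log2 fold change 2.58, standard error 0.488, edgeR adjusted p = 0.0201). *Apoa1*, which encodes the main HDL protein that holds PON1, did not pass the filter and had 0 to 1 counts in YT-FF and 7 to 25 counts in YT-AKO. The cholesterol exporter *Abca1* had a log2 fold change of -0.71 (edgeR adjusted p = 0.0547), and the HDL receptor *Scarb1* one of -0.37 (edgeR adjusted p = 0.207).

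Among 14 tested of 23 other esterases and lactonases, 6 rose (42.9%) and 0 fell, beside 12.6% and 9.01% of all tested genes. At an unadjusted p under 0.05 and by DESeq2 also 0 fell. The median log2 fold change was 0.29 (-0.03 with library totals alone, when 2 rose and 1 fell). Without YT-FF 1 or YT-FF 2 there were 0 calls, without YT-FF 3 2, and without YT-AKO 3 3. *Ephx2*, the soluble epoxide hydrolase, went from 285 ± 44.3 to 735 ± 125 CPM (SD, n = 3, log2 fold change 1.37, standard error 0.215, edgeR adjusted p = 0.0177). *Bphl*, a serine hydrolase, went from 27.2 ± 4.55 to 54.6 ± 6.71 CPM (SD, n = 3, log2 fold change 1.0, standard error 0.181, edgeR adjusted p = 0.0185). *Esd*, which encodes esterase D, went from 78.9 ± 13.5 to 152 ± 53.3 CPM (SD, n = 3, log2 fold change 0.95, standard error 0.263, edgeR adjusted p = 0.0407). *Rgn*, a lactonase of the liver with a fold like that of the paraoxonases, had at most 2 counts in a library.

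Genes of the defence against peroxide and superoxide, to which PON2 is linked, mostly rose. Of 20 tested, 12 rose (60%) and 0 fell, beside 12.6% and 9.01% of all tested genes. At an unadjusted p under 0.05 and by DESeq2 1 was lower. The median log2 fold change was 0.95 (0.61 with library totals alone, when 9 rose and 1 fell). There were 0 calls without YT-FF 1 or YT-FF 2 and 4 without YT-FF 3. *Gpx1*, the cytosolic glutathione peroxidase, went from 379 ± 61.5 to 1658 ± 968 CPM (SD, n = 3, log2 fold change 2.13, standard error 0.400, edgeR adjusted p = 0.0199), and its 47018 counts in YT-AKO 2 were far above the 17658 and 19894 of YT-AKO 1 and 3. *Prdx5*, a peroxiredoxin, had a log2 fold change of 1.57 (standard error 0.394, edgeR adjusted p = 0.0326), and *Sod1*, the cytosolic superoxide dismutase, one of 1.42 (standard error 0.385, edgeR adjusted p = 0.0385). The stress-induced enzymes *Nqo1* (-0.13), *Hmox1* (0.30) and *Gclc* (-0.58) did not pass the test (edgeR adjusted p = 0.764, 0.385 and 0.0504), whereas *Srxn1*, which repairs peroxiredoxins, rose by 1.18 (edgeR adjusted p = 0.0166).

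In coenzyme Q synthesis 11 of 13 genes rose (84.6%) and 0 fell, beside 12.6% and 9.01% of all tested genes. At an unadjusted p under 0.05 and by DESeq2 also 0 fell. The median log2 fold change was 0.96 (0.65 with library totals alone, when 5 rose). There were 0 calls without YT-FF 1 or YT-FF 2 and 6 without YT-FF 3. The largest changes were those of *Coq7*, the last hydroxylase of the pathway (1.44, standard error 0.322, edgeR adjusted p = 0.0258), *Coq6*, a flavin hydroxylase (1.26, standard error 0.160, edgeR adjusted p = 0.0166), and *Coq8a*, an atypical kinase (1.15, standard error 0.188, edgeR adjusted p = 0.0177). *Pdss1*, which with *Pdss2* makes the side chain, stood at 0.04.

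The ER stress list was divided. Of 14 genes 5 rose (35.7%) and 1 fell (7.14%), beside 12.6% and 9.01% of all tested genes, with a median log2 fold change of 0.33 (-0.01 with library totals alone, when 2 rose and 2 fell). Without YT-FF 3 there was 1 call, and with a correction for gene length 3 rose and 0 fell. *Ddit3*, which encodes the stress factor CHOP, had a log2 fold change of 1.65 (standard error 0.372, edgeR adjusted p = 0.0262), *Sdf2l1*, a cochaperone of the ER, one of 0.98 (standard error 0.220, edgeR adjusted p = 0.0258), and *Ern1*, which encodes the sensor IRE1, one of -0.86 (standard error 0.256, edgeR adjusted p = 0.0489). Of 14 tested transcription factors reported to act on paraoxonase promoters, 2 rose (14.3%) and 1 fell (7.14%), shares near those of all tested genes, with a median of -0.01 (-0.32 with library totals alone). The balance depended on the setting, since 1 rose and 3 fell with library totals alone, 3 rose and 4 fell by DESeq2, and 2 rose and 0 fell with a correction for gene length. There was 1 call without YT-FF 3 and 8 without YT-AKO 2. Neither list had a call without YT-FF 1 or YT-FF 2. The called factors were *Jun* (1.18, standard error 0.251, edgeR adjusted p = 0.0238), *Nr1h3*, which encodes the oxysterol receptor LXRα (1.06, standard error 0.220, edgeR adjusted p = 0.0226), and the xenobiotic receptor *Ahr*, which fell (-0.82, standard error 0.226, edgeR adjusted p = 0.0405). *Hnf4a*, which drives liver genes, was under the filter, with at most 1 count in a library. *Sp1*, the gene of the factor whose motif stands in the *Pon2* and *Pon3* promoters, had a log2 fold change of -1.24 (edgeR adjusted p = 0.0513).

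**Figure D4:**
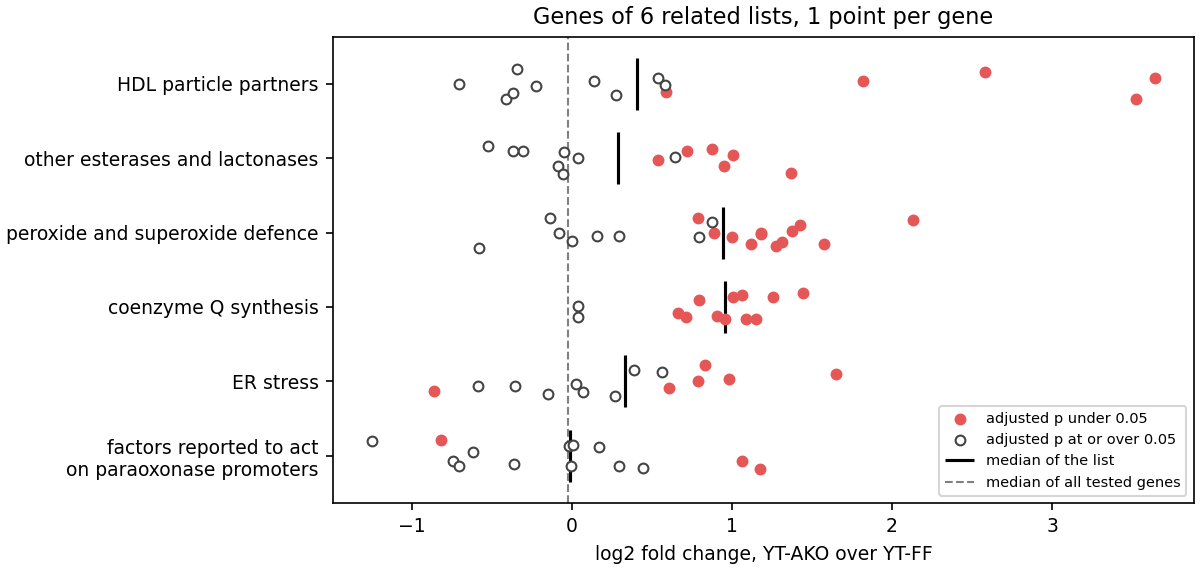
Log2 fold change (YT-AKO over YT-FF) of the tested genes of 6 lists related to the paraoxonases, 1 point per gene (red, edgeR adjusted p under 0.05). Short black lines are list medians, from -0.01 for the transcription factors to 0.96 for coenzyme Q synthesis, and the dashed line is the median of all tested genes, -0.02.

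The genes most like each member over the 6 libraries were ranked by Pearson's r of log2 CPM, as a description. All points of a group share their genotype, so any gene that separated the groups could give a high r. Of 15179 genes, 1839 had an r above 0.9 with *Pon1*, 1977 with *Pon2* and 1527 with *Pon3*. Among the highest with *Pon1* were *Mfsd11* (0.999), *Ppa1*, an inorganic pyrophosphatase (0.998), *Timm44*, of the mitochondrial import motor (0.998), and *Sephs2*, of selenophosphate synthesis (0.997). Their own log2 fold changes were 0.79 to 1.95, all smaller than that of *Pon1*. The genes most like *Pon2* were *Cd302* (0.998), the actin gene *Actg1* (0.997) and *Mpv17* (0.997), and those most like *Pon3* were *Ufsp1* (0.997), *Ap2a2* (0.996) and *Ephx2* (0.994).

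Markers of the cells that scWAT can hold were read beside the members. In bulk tissue, fewer cells of a type and less RNA per cell cannot be told apart. The adipocyte gene *Adipoq* was high in all libraries, at 1649 ± 304 CPM in YT-FF and 2225 ± 250 CPM in YT-AKO (SD, n = 3). Of 10 adipocyte markers 4 rose (40%), beside 12.6% of all tested genes. The summed level of the 10 ran from 18115 to 23828 CPM in YT-FF and from 40239 to 84271 CPM in YT-AKO. Most of this difference lay in *Cfd*, which encodes adipsin (5538 ± 316 and 28940.2 ± 17218 CPM, SD, n = 3), and *Fabp4*, a fatty acid carrier (5205 ± 1732 and 13197 ± 6112 CPM, SD, n = 3). With library totals alone 1 of the 10 rose, *Cfd*. Of 9 beige and brown adipocyte markers 8 rose (88.9%), beside 12.6% of all tested genes. Their summed level ran from 240 to 352 CPM in YT-FF and from 1901 to 3813 CPM in YT-AKO. The groups did not overlap in this sum, nor did they in 25.7% of single tested genes in this direction. *Pon1*, chosen by its rise, is among those genes. The part of adipocytes, beige and brown ones included, in the level of *Pon1* was not tested.

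Liver is the organ in which *Pon1* and *Pon3* are best known, and hepatocyte markers were therefore checked. *Ttr*, *Fga* and *Fgb* had 0 counts in all libraries and *Ahsg* at most 2. Counts of *Alb* were 290, 275 and 746 in YT-FF and 208, 255 and 192 in YT-AKO (edgeR adjusted p = 0.270). Of the 5 hepatocyte markers tested, 1 rose (*Apoc3*, above), or 20% beside 12.6% of all tested genes. By DESeq2 3 rose, and 4 were higher at an unadjusted p under 0.05. The median log2 fold change of the 5 was 1.09 (0.78 with library totals alone). *Serpina1b* (log2 fold change 2.14, edgeR adjusted p = 0.0729) and *Serpina1a* (1.09, edgeR adjusted p = 0.102) were higher without passing the test. *Serpina1b* varied widely within YT-AKO, from 58 counts in YT-AKO 3 to 796 in YT-AKO 2. The summed level of the hepatocyte markers was 1838 to 2393 CPM in YT-FF and 2673 to 3935 CPM in YT-AKO. It was mostly *Cyp2e1*, at 2063 ± 294 and 3093 ± 695 CPM (SD, n = 3). The part of such transcripts in the levels of *Pon1* and *Pon3* was not tested.

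Skeletal muscle markers, of which 1 of 8 rose, varied widely between libraries, with a summed level of 125 to 462 CPM in YT-FF and 210 to 3454 CPM in YT-AKO. They were highest in YT-AKO 1, with 6168 counts of *Ckm* against 318 in YT-AKO 2 and 26 in YT-AKO 3. B cell markers went the other way, with 5 of 8 falling (1183 to 1408 CPM in YT-FF, 692 to 1028 CPM in YT-AKO). Of 8 T cell markers 2 fell, and of 8 endothelial markers 1 fell (by DESeq2 1 also rose). Of all tested genes 12.6% were called higher and 9.01% lower. The single calls among the 8 muscle markers and among the 8 endothelial markers (12.5% each) are near these shares. Of 9 fibroblast and progenitor markers 3 rose and 1 fell (0 and 1 with library totals alone), and of 3 tested epithelial markers 1 rose (0 with library totals alone). Of the 8 macrophage and the 8 Schwann cell markers edgeR and DESeq2 called 0, and 1 macrophage marker was higher at an unadjusted p under 0.05. With library totals alone 2 Schwann cell and 2 endothelial markers fell. The part of these cells in the levels of *Pon1*, *Pon2* and *Pon3* was not tested.

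Under 17 other settings *Pon1* kept a log2 fold change of 2.93 to 3.45. That of *Pon3* lay between 0.54 and 0.96 and that of *Pon2* between 0.22 and 0.88. Both extremes of *Pon2* came from the scale, with library totals alone at the low end and the correction for gene length at the high end.

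**Figure D5:**
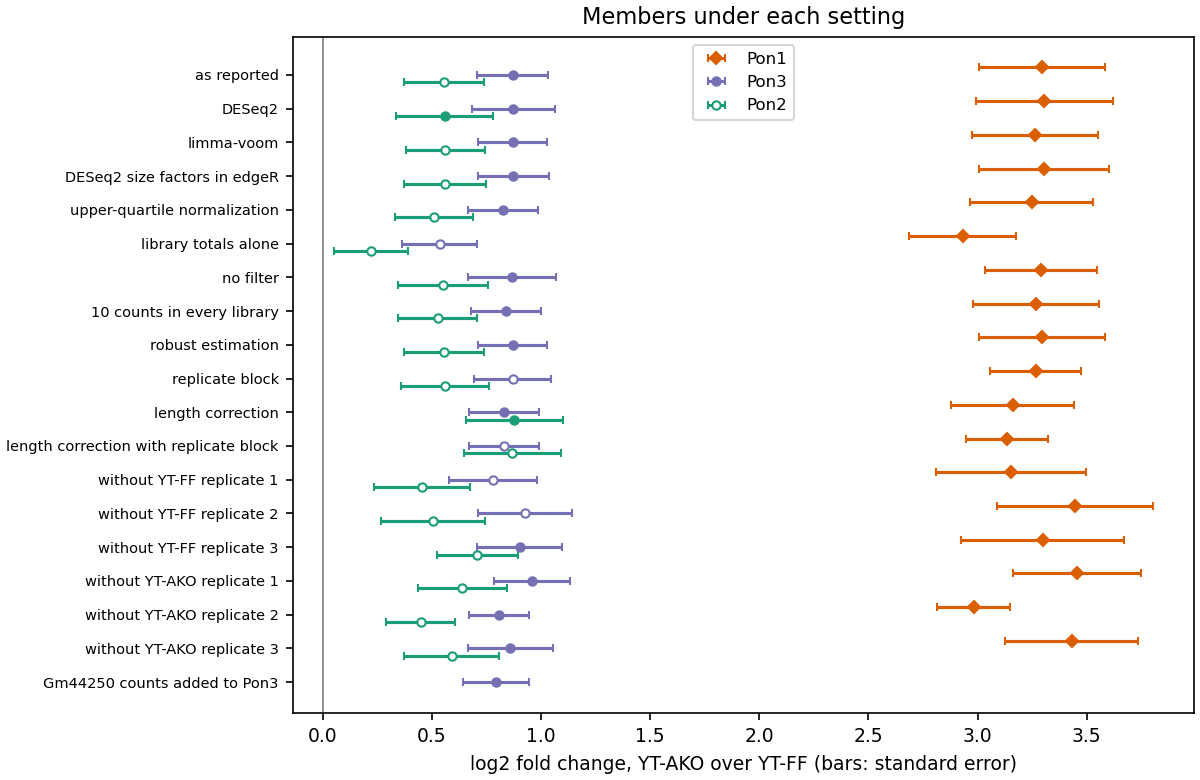
Log2 fold change (YT-AKO over YT-FF) of each member under each setting, with standard errors as bars. Filled circles mark an adjusted p under 0.05, open circles one at or above it, and diamonds *Pon1*, which was not tested. *Pon1* stays between 2.93 and 3.45 and never meets the other members, whose ranges overlap each other.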

How the data were processed

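The 6 scWAT libraries were grouped by their labelled genotype. Paired-end reads had been aligned by the authors with HISAT2 (mm10) and counted per gene over GENCODE vM25 exons with featureCounts 2.0.1. The deposited values are raw counts, taken without regard to strand and without multi-mapping fragments or those shared by several genes. Of 55401 gene identifiers 55141 matched a symbol. Totals were 17740987 to 21838493 per library. Intervals and spreads cover these libraries only.

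Counts were analysed in R 4.3.3 with edgeR 4.0.16 (TMM, filterByExpr with a minimum count of 10 and total of 15, quasi-likelihood test without robust estimation, Benjamini-Hochberg adjustment over 16807 genes, called at an adjusted p under 0.05). The biological coefficient of variation was 0.288. TPM used summed exon lengths. Alternatives were DESeq2 1.42.0, limma-voom (limma 3.58.1), other normalizations and filters, robust estimation, a block for the replicate number, a length correction (a spline with 6 degrees of freedom), and each library left out. The edgeR test was tried on simulated counts with few genes changed, each by more than the log2 fold changes of *Pon2* and *Pon3*. It recovered 167 of 194 changed genes, with 4 false calls among 16346 genes. Differences as small as those of *Pon2* and *Pon3* were not simulated. Single ratios were compared with exact permutation tests. Coding bases were aligned with Biopython 1.88, with exons from the GENCODE annotation of the same build used here, in which the members had the same exon lengths as in the count files. All 3 members matched the RefSeq promoter table, whose windows run from 250 bases before to 50 bases after each start.

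The members and lists were chosen with earlier results of these data known. The genes named are the members, tested genes within 1 Mb, the 3 called genes of each list with the largest changes, the genes most like each member by Pearson's r (5 for *Pon1*, 3 for each of the others, among genes with a mean of at least 1 CPM, log2 CPM with a prior count of 2), and the targeted genes. Other list members and markers were named after their values were seen. Protein sequences were not used here, and a few genes covered by this rule are not reported here.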

Additional observations from a re-analysis of the deposited data

How the results depend on the processing

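The direction of every member's log2 fold change held under all settings tried in the fits, whereas the calls depended on the controls and on the scale. *Pon2* passed the threshold with DESeq2 (0.56, adjusted p = 0.0392) and with the length correction (0.88, edgeR adjusted p = 0.0422). *Pon3* lost its call with library totals alone (0.54, edgeR adjusted p = 0.0546). With a library left out, *Pon3* ranged from 0.78 to 0.96, with edgeR adjusted p from 0.00533 to 0.113. The cause of these shifts was not tested. With a library left out, the called genes ranged from 0 (4665 at an unadjusted p under 0.05) to 5349 of all tested genes, against 3636 with all libraries and 5423 with DESeq2. The same ranges were 0 to 4 for the neighbours of the cluster, 0 to 8 for HDL partners, 0 to 7 for esterases and lactonases, 0 to 15 for peroxide and superoxide defence, 0 to 11 for coenzyme Q synthesis, 0 to 8 for ER stress and 0 to 8 for the transcription factors. Library totals alone left 3 calls among the esterases and 5 in coenzyme Q synthesis, the length correction left 3 in ER stress, and no filter left 1 neighbour, Gm44250, without *Ppp1r9a*. With the length correction the log2 fold change of *Ppp1r9a* was 0.05, and with the replicate block added also 0.05, against -0.52. The transcription factors had 7 calls with DESeq2, 5 with no filter and 5 with at least 10 counts in every library. As a share of CPM rather than TPM, *Pon1* made up 6.53% of the family in YT-FF and 28.8% in YT-AKO.

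Libraries of the same number share only that number. Their deviations from the group means correlated at 0.126, -0.118 and -0.0893 for numbers 1, 2 and 3, and not every library correlated best with its own number. With the replicate block edgeR called 33 genes (5806 at an unadjusted p under 0.05), 0 neighbours and 0 genes of each of the 6 lists, and *Pon3* had a log2 fold change of 0.87 (edgeR adjusted p = 0.0604). With the length correction and the replicate block it called 81 genes (5091 at an unadjusted p under 0.05), 0 neighbours, 1 HDL partner and 0 genes of each other list, and *Pon3* had 0.83 (edgeR adjusted p = 0.0614). The members had at least 182 counts in each library, and the effect of depth on their calls was not tested. The alternatives for the lists and for the principal transcript lengths were added after the data were seen.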
